A study of Mus musculus with 27 samples.

Results

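The Hox clusters are 4 groups of homeobox genes, and the 39 genes of the expression tables whose symbol is Hoxa, Hoxb, Hoxc or Hoxd followed by a number are described here, out of 20156 genes in all. They were taken by name and not by any measured value. In the mm9 genome HoxA held 11 of them on chromosome 6 (52105366 to 52210874), HoxB 10 on chromosome 11 (96055675 to 96229567), HoxC 9 on chromosome 15 (102751562 to 102867283) and HoxD 9 on chromosome 2 (74506367 to 74603199). The 8 genes of paralogue groups 1 to 3 are called anterior, the 15 of groups 4 to 8 central and the 16 of groups 9 to 13 posterior.

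Hox proteins are DNA-binding transcription factors that give cells their identity along the head-to-tail axis, and the order of the genes on the chromosome follows the order in which they are used in the embryo. Polycomb repressive complex 2 places H3K27me3 (trimethylated lysine 27 of histone H3) over silent Hox genes, and trithorax complexes place H3K4me3 (trimethylated lysine 4) at active starts. Fibroblasts keep a Hox pattern from the place in the body they came from, whereas pluripotent cells hold the clusters silent under H3K27me3, often together with H3K4me3.

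The study compared mouse embryonic fibroblasts (MEFs), an arrested intermediate of reprogramming (pre-iPSCs) and induced pluripotent stem cells (iPSCs), to follow chromatin and expression from the start to the end of reprogramming. MEFs came from embryos at embryonic stage E13.5 with an Oct4-GFP transgenic allele and a Rosa26 allele, from fathers of CBA/CaJ and C57BL/6J background mated with 129Sv/Jae females. Pre-iPSCs and iPSCs were made from such MEFs with retroviruses for the Yamanaka factors, came from 2 stable pre-iPSC clones and the iPSCs that correspond to them, and were grown on MEF feeder cells with leukaemia inhibitory factor and serum, for 6 passages before RNA sequencing. Each cell type had 2 libraries of RNA and 2 of each of H3, H3K4me3 and H3K27me3, and 1 of H3K9me3. The clone of each library is not given, so the numbers 1 and 2 are names, and p-values measure the spread between these libraries. MEF chromatin was digested with another amount of micrococcal nuclease for another time than that of the other cells, so digestion and cell type cannot be told apart in any chromatin comparison with MEFs.

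The promoters of Hoxb13, Hoxa7 and Hoxd12 are shown because results turn on these genes. Hoxb13 was listed at 0 FPKM in MEFs and was highest in iPSCs, Hoxa7 was the highest Hox transcript of pre-iPSCs by its mean, and Hoxd12 carried both marks above 1 RPKM within 1000 bp of its start in both iPSC libraries, though not in replicate 2 with a window of 500 bp. Each run is the 250 bases before the start given in the expression tables, read from the mm9 genome on the gene's own strand, with every CG in capitals.
Hoxb13 (chr11:96055425-96055674, plus strand): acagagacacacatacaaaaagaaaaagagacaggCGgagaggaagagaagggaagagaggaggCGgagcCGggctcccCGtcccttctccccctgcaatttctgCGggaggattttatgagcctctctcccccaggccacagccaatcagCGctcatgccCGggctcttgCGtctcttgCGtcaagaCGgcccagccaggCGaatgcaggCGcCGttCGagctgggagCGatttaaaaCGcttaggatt
Hoxa7 (chr6:52168573-52168822, minus strand): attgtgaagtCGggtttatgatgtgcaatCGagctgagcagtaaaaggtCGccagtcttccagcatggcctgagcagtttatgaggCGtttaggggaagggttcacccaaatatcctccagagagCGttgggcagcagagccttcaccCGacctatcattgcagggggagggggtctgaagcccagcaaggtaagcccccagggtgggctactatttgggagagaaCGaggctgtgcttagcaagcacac
Hoxd12 (chr2:74512820-74513069, plus strand): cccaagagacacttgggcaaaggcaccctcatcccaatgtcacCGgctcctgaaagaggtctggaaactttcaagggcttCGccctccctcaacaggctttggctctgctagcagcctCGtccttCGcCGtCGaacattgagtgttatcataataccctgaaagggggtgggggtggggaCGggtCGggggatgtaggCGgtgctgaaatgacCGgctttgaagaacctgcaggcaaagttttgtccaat
These 3 runs held 16, 7 and 10 CG. Over the 39 Hox promoters the number of CG ran from 3 (Hoxa9, Hoxb3 and Hoxd4) to 48 (Hoxd8) with a median of 14, against a median of 11 over all 20156 promoters. CCAAT, searched on both strands, was found in 21 of 39 (53.8%) and in 35.5% of all promoters. CACGTG, which reads the same on both strands, was found in 11 of 39 (28.2%) and in 6.91% of all. TATAAA was found in 7 of 39 (17.9%, all promoters 11.7%) and GGGCGG in 16 of 39 (41.0%, all promoters 45.8%), both searched on both strands. The letters CG lie inside both CACGTG and GGGCGG, the other motifs were counted independently of each other, and a match is only a description of the sequence.

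The labels were checked against markers, whose levels are FPKM, fragments scaled for transcript length and library depth, as deposited. Of 13 fibroblast genes, 10 were lower in pre-iPSCs and 10 in iPSCs than in MEFs, where 9% and 15.5% of all genes tested were lower. The summed FPKM of the 13 was 4547 and 4334 in the MEF libraries, 338 and 105 in pre-iPSCs, then 246 and 297 in iPSCs. Pdgfra, Lum and Dcn were not lower, and Dcn, a matrix proteoglycan, was at 9.005 and 36.6 FPKM in MEFs, then 21.9 and 4.37 in pre-iPSCs, then 30.2 and 40.5 in iPSCs. All 10 pluripotency genes lay higher in both iPSC libraries than in both MEF libraries. This is given with no test, since the levels in iPSCs carried several of them past the filter on low values. Nanog was listed at 0 in both MEF libraries, at 0.52 and 0 in pre-iPSCs and at 49.5 and 73.6 in iPSCs. Of the 10 genes, 6 and 5 were at 1 FPKM or more in the pre-iPSC libraries. Pou5f1 was at 378 and 3184 FPKM there and at 586 and 397 in iPSCs. It encodes Oct4, a Yamanaka factor, so RNA of the retrovirus and of the cell's own gene cannot be told apart in these values. The paper describes pre-iPSCs as not expressing their own pluripotency markers. Summed FPKM ran from 3.21 to 16.9 for 5 endothelial genes, from 3.46 to 11.1 for 5 blood genes, from 9.54 to 76.7 for 4 neural genes and from 4.93 to 167 for 5 epithelial genes, the last highest in iPSCs. From MEFs to iPSCs 1 endothelial gene was higher and 1 lower, and 2 neural and 4 epithelial genes were higher. Over all genes tested 10.3% were higher and 15.5% lower. Of 3 tested blood genes 0 were called (limma, unadjusted p below 0.05 at 1). The lower endothelial gene, Emcn, was at 1.22 and 4.50 FPKM in MEFs and at most 0.228 elsewhere. Cldn6, 1 of the 4 epithelial genes, was at 15.4 and 26.2 in iPSCs and at most 0.287 elsewhere. Each passed the filter only through the cells where it was high, so these 2 calls are descriptions. Of 5 skeletal muscle genes the regulators Myod1, Myf5 and Myog were at most 0.34 FPKM in any library, while Acta1 reached 155 and 285 FPKM in MEFs. The reads in called nucleosomes numbered 12007350 to 15222040 in the libraries of the modifications and 67362868 to 108211816 in those of H3.

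Hox transcripts were most abundant in MEFs, less so in pre-iPSCs and least in iPSCs. The summed FPKM of the 39 genes was 239.9 and 392.9 in the MEF libraries, 92.2 and 96.2 in pre-iPSCs, then 38.2 and 39.2 in iPSCs, and the 3 cell types did not overlap. Measured against the MEF mean, pre-iPSCs held 29.1% and 30.4% and iPSCs 12.1% and 12.4% of it. The fibroblast markers held 7.61% and 2.36% of their MEF mean in pre-iPSCs and 5.54% and 6.68% in iPSCs, below the Hox share in each library. These sums are carried by the most abundant markers, and Col3a1, Pdgfra, Lum and Dcn each lay above the Hox share in both iPSC libraries (Col3a1 at 14.1% and 18.6% of its MEF mean, Dcn at 132% and 178%). The part of fibroblast or feeder RNA in the Hox values of these cells was not tested, and in a bulk sample fewer expressing cells and less RNA per cell cannot be told apart. Genes at 1 FPKM or more numbered 27 in each MEF library, 24 and 21 in pre-iPSCs, then 15 and 16 in iPSCs.

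The central genes, which pattern the trunk, held most of the Hox RNA of MEFs and kept the smallest share of it in iPSCs, though not in both pre-iPSC libraries (28.1% and 31.7% of the MEF mean, against 28.7% and 26.3% for the anterior and 31.9% and 30.1% for the posterior genes). Their summed FPKM was 129.6 and 243.1 in MEFs, then 52.4 and 59.1 in pre-iPSCs, then 14.5 and 16.8 in iPSCs, the last 7.78% and 8.99% of the MEF mean. The anterior genes, which pattern the hindbrain and neck, summed to 46.7 and 58.8, then 15.1 and 13.8, then 11.9 and 11.3 FPKM, so that iPSCs held 22.5% and 21.5% of the MEF mean. The posterior genes, which pattern the lumbar to tail region and the limbs, summed to 63.6 and 91.0, then 24.7 and 23.3, then 11.8 and 11.1 FPKM. Single genes weigh on the sums of iPSCs. Among others, Hoxb9 gave 2.92 and 3.67 FPKM of the posterior sum and Hoxb13 3.42 and 2.34. Of the anterior sum Hoxa3 gave 2.25 and 2.10, Hoxb2 1.41 and 2.46 and Hoxb1 1.19 and 1.31. No test was made between these groups.

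**Figure D1:**
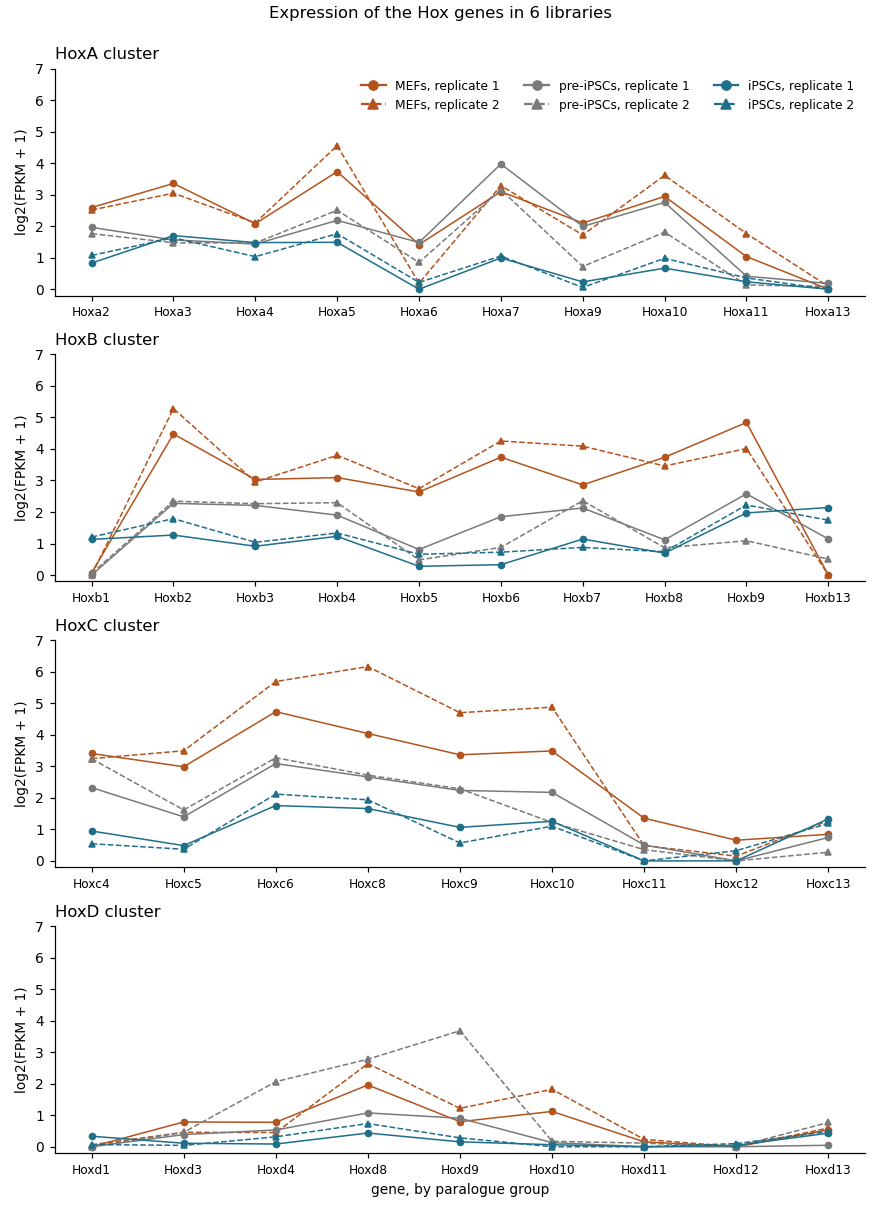
Expression of the Hox genes, as log2(FPKM + 1), by cluster (panels) and paralogue group (x axis). Each line is 1 library, coloured by cell type with a solid line for replicate 1 and a dashed line for replicate 2. MEFs lie above the other cells over most of HoxA, HoxB and HoxC, Hoxb13 and Hoxb1 are highest in iPSCs, and pre-iPSC replicate 2 alone is high at Hoxd4 and Hoxd9.

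The clusters differed in level. HoxC had a summed FPKM of 80.1 and 195.5 in MEFs, then 26.8 and 30.5 in pre-iPSCs, then 9.87 and 10.1 in iPSCs. HoxB summed to 99.8 and 122.5 FPKM in MEFs, then 24.3 and 19.6 in pre-iPSCs, then 13.46 and 15.1 in iPSCs. HoxA summed to 53.2 and 64.4, then 38.3 and 24.0, then 13.6 and 12.4 FPKM. HoxD was the lowest cluster in 5 of the 6 libraries, at 6.80 and 10.5 FPKM in MEFs and 1.29 and 1.67 in iPSCs, and its pre-iPSC libraries stood apart from each other at 2.86 and 22.1, the second above HoxB in the same library.

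In MEFs the genes highest by mean FPKM were Hoxc8, Hoxc6 and Hoxb2, but the libraries differed in their order, and in replicate 1 Hoxb9 (27.6 FPKM) lay above all 3 and Hoxc8 below Hoxb2. Hoxc8, a factor of the thoracic trunk, was at 15.5 and 70.7 FPKM in the MEF libraries, at 5.34 and 5.59 in pre-iPSCs and at 2.16 and 2.83 in iPSCs. Hoxc6, also a thoracic factor, was at 25.6 and 50.7 in MEFs, then 7.50 and 8.66 in pre-iPSCs, then 2.38 and 3.34 in iPSCs. Hoxb2, a hindbrain factor, was at 21.2 and 37.9 in MEFs, then 3.84 and 4.08 in pre-iPSCs, then 1.41 and 2.46 in iPSCs. In all 3 genes the MEF libraries lay above the pre-iPSC libraries and these above the iPSC libraries, while the MEF libraries differed from each other by more FPKM than the other pairs did.

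Pre-iPSCs against MEFs asks which Hox genes had gone down by the intermediate. Of the 30 Hox genes whose average over the 6 libraries reached 0.5 FPKM, 13 were lower and 0 higher (limma on log2(FPKM + 1), adjusted p below 0.05 and at least 2-fold), where 9% of all 12401 genes tested were lower and 7.39% higher. Their median log2 fold change was -1.18, against -0.04 over all genes. Of the 15 central genes 8 fell (Hoxa5, Hoxb4, Hoxb5, Hoxb6, Hoxb8, Hoxc5, Hoxc6 and Hoxc8), with 2 anterior (Hoxa3 and Hoxb2) and 3 posterior genes (Hoxb9, Hoxc10 and Hoxd10). By cluster these were 6 of 9 tested genes of HoxB, 4 of 7 of HoxC, 2 of 10 of HoxA and 1 of 4 of HoxD. Without the MEF libraries Hoxb5 and Hoxd10, the latter the only call in HoxD, averaged under 0.5 FPKM. They were tested only because of their level in MEFs, so these 2 calls are descriptions. The count was 8 without MEF replicate 2 or without either iPSC library, and 1 without pre-iPSC replicate 2.

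The 3 largest falls lay side by side in HoxB, with Hoxb7 between them (log2 fold change -1.23, adjusted p = 0.111, not called). Genes outside this stretch followed closely, Hoxb2 at -2.57 ± 0.38 SE and Hoxc10 at -2.49 ± 0.57. The ranking thus rests on differences smaller than the SE. Hoxb6 was at 12.3 and 18.1 FPKM in MEFs and at 2.61 and 0.835 in pre-iPSCs (log2 fold change -2.63 ± 0.46 SE, adjusted p = 0.0100). Hoxb8 was at 12.3 and 10.0 in MEFs and at 1.17 and 0.822 in pre-iPSCs (-2.61 ± 0.35, adjusted p = 0.00389). Hoxb9 was at 27.6 and 15.2 in MEFs and at 4.97 and 1.13 in pre-iPSCs (-2.59 ± 0.48, adjusted p = 0.0120). The groups did not overlap in any of them. In iPSCs Hoxb9 stood at 2.92 and 3.67 FPKM, between its pre-iPSC values, whereas Hoxb6 (0.256 and 0.653) and Hoxb8 (0.620 and 0.670) lay below theirs.

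Hoxa7, a central gene of the trunk, was not called in this step. It was the highest Hox transcript of pre-iPSCs by its mean, at 14.7 and 7.92 FPKM against 7.55 and 8.75 in MEFs (log2 fold change 0.37 ± 0.41 SE, adjusted p = 0.599), so a change was not detected between these libraries. Hoxc6 came next in pre-iPSCs, and Hoxd9 followed by its mean because of 1 library (0.871 and 11.8 FPKM). Hoxc4, another central gene, was at 9.61 and 8.48 FPKM in MEFs and 4.01 and 8.45 in pre-iPSCs. The 15 other tested genes that were not called had log2 fold changes from -1.77 (Hoxc9, adjusted p = 0.0515) to 1.28 (Hoxd9, adjusted p = 0.207).

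iPSCs against pre-iPSCs asks what fell in the last step. Hoxa7 and Hoxc4 (2 of 30) were lower and 0 Hox genes were higher, where 4.71% of all genes tested were lower and 3.91% higher. Both counts were close to the share over all genes. Of the 30, 15 had an unadjusted p below 0.05 (limma), a cut at which the share over all genes is not given. Hoxa7 fell to 0.988 and 1.07 FPKM (log2 fold change -2.54 ± 0.41 SE, adjusted p = 0.0114) and Hoxc4 to 0.930 and 0.459 (-2.04 ± 0.44, adjusted p = 0.0322), both below every pre-iPSC and MEF library. The median log2 fold change of the 30 genes was -0.87, against -0.09 over all genes. This count moved when single libraries were left out. It fell without either iPSC library and rose without either MEF library. MEF libraries enter this comparison only through the shared spread and the table term, and the cause of the moves was not tested.

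iPSCs against MEFs spans the whole course. Of the 30 genes 23 were lower and 1 (Hoxb13) higher, where 15.5% of all genes tested were lower and 10.3% higher, with a median log2 fold change of -2.17 against -0.14 over all genes. All but 3 of the 15 central genes (Hoxa4, Hoxa6 and Hoxd4) fell, with the anterior Hoxa2, Hoxa3, Hoxb2 and Hoxb3 and the posterior Hoxa9, Hoxa10, Hoxa11, Hoxb9, Hoxc9, Hoxc10 and Hoxd10. Of the lower genes Hoxa11, Hoxb5 and Hoxd10 averaged under 0.5 FPKM without the MEF libraries and so were tested only because of them, as Hoxb13 was because of iPSCs. The largest falls were those of Hoxb6 (log2 fold change -3.47 ± 0.46 SE, adjusted p = 0.00287), Hoxb2 (-3.35 ± 0.38, adjusted p = 0.00167) and Hoxc8 (-3.30 ± 0.55, adjusted p = 0.00599). Hoxa4, Hoxa6, Hoxc13, Hoxd4 and Hoxd9 were among those not called. The count of called genes was 5 without iPSC replicate 1 and 8 without iPSC replicate 2. This comparison shares its libraries with the other 2, so their values are not independent.

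A few Hox genes were highest in iPSCs. Hoxb13, the most posterior gene of HoxB, was listed at 0 in both MEF libraries, at 1.21 and 0.421 FPKM in pre-iPSCs and at 3.42 and 2.34 in iPSCs, a difference between MEFs and iPSCs of 1.94 ± 0.32 SE on the log2(FPKM + 1) scale. No fold is given, since the MEF libraries were listed at 0. Its average passed the filter of 0.5 FPKM only through the iPSC libraries, so the group in which it is high decided that it was tested, and its call is a description. Hoxb1, a hindbrain gene of group 1, was at 1.19 and 1.31 FPKM in iPSCs and at most 0.0496 in the other 4 libraries, but its mean was below the filter, so it was not tested.

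The filter left out 9 genes. Besides Hoxb1 these were Hoxa13, Hoxc11, Hoxc12, Hoxd1, Hoxd3, Hoxd11, Hoxd12 and Hoxd13, 6 of them from groups 11 to 13. Hoxc11 was at 1.56 and 0.398 FPKM in MEFs and listed at 0 in both iPSC libraries. The remaining 7 stayed below 1 FPKM in every library. Hoxd4 lies wholly within the annotated span of Hoxd3, and the annotated Hoxa3 transcript runs over Hoxa4, Hoxa5 and Hoxa6. Strand was not stated for the RNA libraries, so reads of overlapping transcripts cannot be told apart there.

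In HoxD the pre-iPSC libraries disagreed at Hoxd4, Hoxd8 and Hoxd9, which help to pattern the trunk and limbs. Hoxd4 was at 0.447 and 3.18 FPKM, Hoxd8 at 1.10 and 5.85 and Hoxd9 at 0.871 and 11.8 in pre-iPSC replicates 1 and 2. The MEF libraries had 0.711 and 0.367 for Hoxd4, 2.89 and 5.22 for Hoxd8 and 0.736 and 1.33 for Hoxd9. Replicate 2 of the pre-iPSCs was thus the highest of all 6 libraries at each of these 3 genes. Hoxd10, the next gene on the posterior side, was at 0.0946 and 0.126 in the same libraries. Fibroblast markers were lower in replicate 2 (105) than in replicate 1 (338), and whether the libraries come from different clones is not given. The source of the difference at these HoxD genes was not tested.

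Genes that work with Hox proteins or act on the clusters were counted from lists. Over all genes tested, 15.5% were lower and 10.3% higher in iPSCs than in MEFs, 9% lower and 7.39% higher in pre-iPSCs than in MEFs, and 4.71% lower and 3.91% higher in iPSCs than in pre-iPSCs. TALE cofactors bind DNA together with Hox proteins. Of 9, 4 were lower in iPSCs than in MEFs and 0 higher, among them Meis1 (10.7 and 7.58 FPKM in MEFs, then 0.290 and 1.37 in iPSCs), Meis2 (12.7 and 9.84, then 0.952 and 3.20) and Meis3 (7.96 and 17.6, then 2.01 and 2.53). Of the 9, 2 were already lower in pre-iPSCs, Meis3 among them, and 0 of 9 were called between pre-iPSCs and iPSCs (limma, unadjusted p below 0.05 at 2). Pbx2 was at 12.0 and 11.9 FPKM in MEFs and 25.4 and 20.1 in iPSCs without being called.

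Of 11 upstream inducers, 8 were tested. Cdx1, a homeobox factor that activates Hox genes in the tail end of the embryo, was at 0.120 and 0 FPKM in MEFs, then 0.0485 and 0 in pre-iPSCs, then 3.34 and 1.48 in iPSCs, and was called higher in iPSCs than in either. It passed the filter on low values only through the iPSC libraries, so this call is a description. No other gene of this list was called in any comparison. Cdx2 was at most 0.0841 FPKM and Cdx4 was listed at 0 in all libraries. The retinoic acid receptors Rara and Rarg were at 8.71 to 62.0 FPKM in all 6 libraries.

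Of 22 Polycomb and trithorax genes 21 were in the tables and tested. In iPSCs against MEFs 7 of 21 were higher and 2 of 21 lower. The higher genes were Jarid2, a partner of Polycomb repressive complex 2 (2.86 and 1.26 FPKM in MEFs, 21.8 and 15.5 in pre-iPSCs, 32.2 and 34.0 in iPSCs), the complex 1 members Pcgf2, Cbx2, Cbx7 and Phc1, and the H3K4 methyltransferase subunits Wdr5 and Ash2l. Cbx7, a reader of H3K27me3, was at 0.866 and 0.509 FPKM in MEFs, then 3.47 and 5.10 in pre-iPSCs, then 52.7 and 49.5 in iPSCs. Its relative Cbx8 (2.57 and 3.43 FPKM in MEFs, then 0.361 and 0.888 in iPSCs) was among the lower genes. Jarid2, Cbx7 and Phc1 (3 of 21) were already higher in pre-iPSCs than in MEFs, and from pre-iPSCs to iPSCs Cbx7 and Ash2l (2 of 21) were higher and 1 of 21 lower, the last close to the share over all genes. Ezh2, the methyltransferase of complex 2, was at 25.98 and 14.1 FPKM in MEFs and 38.5 and 46.5 in iPSCs without being called.

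No gene that flanks the clusters was called. Of 16 neighbours, the 2 nearest on each side of each cluster, 12 were tested, and 0 were called in each of the 3 comparisons (limma, unadjusted p below 0.05 at 1 gene in each). Their median log2 fold change from MEFs to iPSCs was 0.01. Skap2, the nearest on the anterior side of HoxA at 142818 bp, was at 12.3 and 24.9 FPKM in MEFs and 25.05 and 21.5 in iPSCs. Evx1, a homeobox gene 52618 bp beyond the posterior end of HoxA, was listed at 0 in both MEF libraries and at most 0.366 elsewhere.

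H3K27me3 was highest in iPSCs over HoxA, HoxB and HoxC, and it differed by territory within the clusters. Levels are RPKM, reads scaled for region length and unique reads of the library, for which the genome mean was 0.314 to 0.317 in every H3K27me3 library. Over the 4 clusters the mean of the libraries was 0.648 in MEFs, then 0.537 in pre-iPSCs, then 0.773 in iPSCs. HoxC had 0.684 ± 0.086 (SD, n = 2) in MEFs, then 0.607 ± 0.072 in pre-iPSCs, then 0.856 ± 0.0045 in iPSCs. HoxA had 0.520 ± 0.062, 0.386 ± 0.040 and 0.718 ± 0.011, and HoxB 0.622 ± 0.013, 0.558 ± 0.094 and 0.745 ± 0.043. HoxD had 0.794 ± 0.083 in MEFs, then 0.580 ± 0.094 in pre-iPSCs, then 0.783 ± 0.0015 in iPSCs. These levels over whole clusters and territories are given as descriptions, and the tests were made on bins and promoters.

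**Figure D2:**
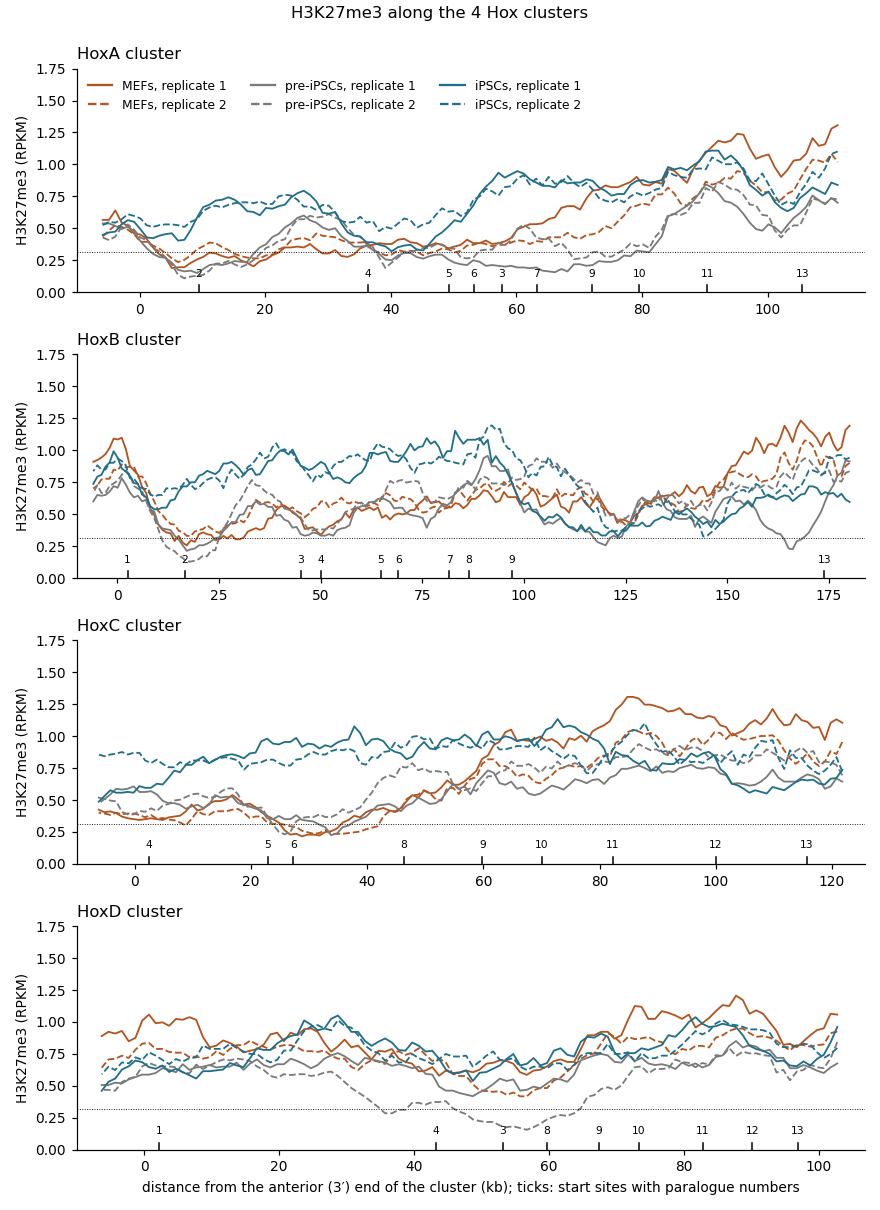
H3K27me3 in RPKM along each Hox cluster, as the running mean of 9 windows of 1000 bp, against the distance in kb from the anterior end. Lines are single libraries, ticks with numbers mark the starts of the genes and the dotted line is the genome mean. In MEFs the posterior parts of HoxA and HoxC lie above the rest. iPSCs lie above MEFs along most of HoxB and HoxC up to group 9 and in the anterior and central parts of HoxA. Pre-iPSC replicate 2 alone drops below the genome mean in the middle of HoxD.

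In MEFs H3K27me3 was higher at the posterior than at the anterior end of HoxA and HoxC. HoxA was at 0.291 and 0.354 RPKM over its anterior territory, at 0.421 and 0.348 over the central and at 0.952 and 0.710 over the posterior territory. HoxC, which has no anterior genes, was at 0.395 and 0.360 over the central and at 1.04 and 0.840 over the posterior territory. The anterior and central territories of HoxA and the central territory of HoxC, which holds Hoxc6 and Hoxc8, thus lay closer to the genome mean than the posterior territories did. HoxB was at 0.479 and 0.542 (anterior), 0.524 and 0.598 (central) and 0.739 and 0.702 (posterior), and HoxD was at 0.592 or more in all 3 territories.

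In iPSCs this difference was smaller in HoxA, and in HoxC the libraries of both territories overlapped. The anterior territory of HoxA reached 0.616 and 0.645 RPKM and the central one 0.617 and 0.678, both above every MEF and pre-iPSC library, beside 0.879 and 0.842 over the posterior one. The central territory of HoxC reached 0.856 and 0.838, close to its posterior territory at 0.854 and 0.881. HoxB reached 0.800 and 0.817 over the anterior and 0.955 and 0.923 over the central territory, but only 0.528 and 0.667 over the posterior one. The posterior territories of HoxA, HoxB, HoxC and HoxD and the anterior territory of HoxD did not lie above both MEF libraries.

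Pre-iPSCs lay below both MEF libraries in several territories. The central territory of HoxA was at 0.232 and 0.331 RPKM and the posterior one at 0.481 and 0.527, both below the 2 MEF libraries. The posterior territory of HoxC (0.664 and 0.789) and all 3 territories of HoxD also lay below both MEF libraries, the posterior one of HoxD at 0.709 and 0.630. The central territory of HoxC, at 0.429 and 0.4997, lay above both MEF libraries instead, and far below its iPSC values. The anterior territory of HoxA also lay above both, by little in replicate 1, at 0.355 and 0.377 beside 0.291 and 0.354 in MEFs. The central territory of HoxD was at 0.555 in replicate 1 and 0.278 in replicate 2, the lowest of its 6 values, and the pre-iPSC RNA library named replicate 2 is the one in which Hoxd4, Hoxd8 and Hoxd9 were highest. Whether libraries of the same number came from the same cells is not given, and this was not tested.

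**Figure D3:**
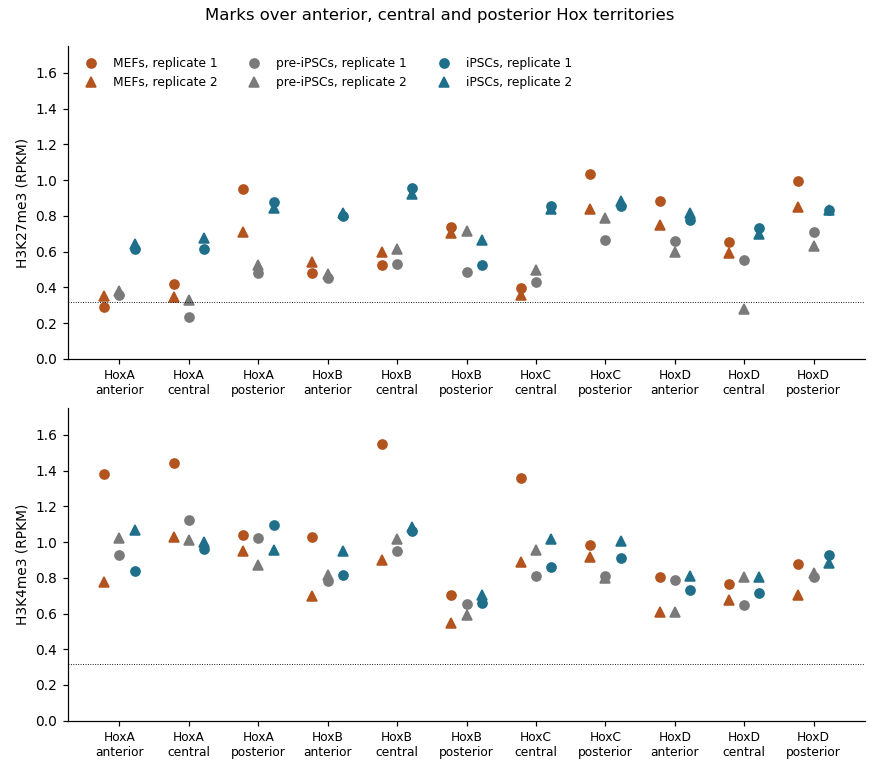
H3K27me3 (top) and H3K4me3 (bottom) in RPKM over the anterior, central and posterior territory of each cluster. Circles are replicate 1 and triangles replicate 2 of each cell type, and the dotted line is the genome mean. H3K27me3 is highest in iPSCs in the anterior and central territories of HoxA and HoxB and the central territories of HoxC and HoxD, and MEF replicate 1 stands above MEF replicate 2 in H3K4me3.

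Bins of 10 kb were tested over the genome (edgeR quasi-likelihood test, adjusted p below 0.05), and 53 tested bins lay in the Hox clusters. In iPSCs against pre-iPSCs 10 of 53 were higher and 0 lower in H3K27me3, where 0.0557% of all 245852 bins were higher and 0.0264% lower. They were 4 in HoxA, 4 in HoxB, 2 in HoxC and 0 in HoxD, and 46 of 53 had a fold change above 1. The bin with the start of Hoxa2 (chr6:52110001-52120000) was at 0.174 and 0.134 RPKM in pre-iPSCs and at 0.622 and 0.603 in iPSCs (log2 fold change 1.96 ± 0.23 SE, adjusted p = 0.00169), beside 0.249 and 0.334 in MEFs. The bin of Hoxa9 (chr6:52170001-52180000) was at 0.214 and 0.281, then 0.853 and 0.818 (1.74 ± 0.21, adjusted p = 0.00229), and the bin that ends just after the Hoxc6 start (chr15:102830001-102840000) at 0.287 and 0.355, then 0.916 and 0.848 (1.45 ± 0.18, adjusted p = 0.00293). A bin between Hoxb2 and Hoxb3 (chr11:96200001-96210000) was at 0.315 and 0.306, then 0.853 and 0.782 (1.38 ± 0.19, adjusted p = 0.00472). These 4 were also called by DESeq2. The other 6 bins held the starts of Hoxa10, Hoxa3 with Hoxa7, Hoxb2, Hoxb3, Hoxb4 and Hoxc5. The count of 10 was 1 without either pre-iPSC library and 3 without iPSC replicate 1.

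From MEFs to pre-iPSCs 7 of the 53 bins were lower in H3K27me3 and 1 higher, where 3.65% of all bins were lower and 8.88% higher. Of the 7, 5 were in HoxA, and 4 of these in its posterior territory or at the Hoxa9 start. The bin of Hoxa10 (chr6:52180001-52190000) was at 0.879 and 0.662 RPKM in MEFs and 0.310 and 0.355 in pre-iPSCs (log2 fold change -1.16 ± 0.20 SE, adjusted p = 0.000943), and returned to 0.853 and 0.746 in iPSCs. That of Hoxa9 was at 0.649 and 0.440 in MEFs (-1.08 ± 0.23, adjusted p = 0.00431). The bins of Hoxa2, Hoxa13 and Hoxd3 and 2 bins with no Hox start, 1 each in HoxA and HoxB, were the others. The count was 2 without MEF replicate 1 and 4 without either pre-iPSC library, and 2 with DESeq2 (the bins of Hoxa9 and Hoxa10).

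From MEFs to iPSCs 21 of the 53 bins were higher and 1 lower, where 8.27% of all bins were higher and 3.33% lower. They lay in HoxB (9), HoxA (6) and HoxC (6), and 0 in HoxD. In HoxC they formed an unbroken run from a bin beyond Hoxc9 to Hoxc4, and in HoxB another from Hoxb9 to Hoxb2. The largest change was that of the Hoxc6 bin, from 0.242 and 0.260 RPKM in MEFs to 0.916 and 0.848 (log2 fold change 1.84 ± 0.19 SE, adjusted p = 1.3e-05). The bin of Hoxc8 went from 0.412 and 0.350 to 0.945 and 0.884 (1.30 ± 0.19, adjusted p = 0.000248), and that of Hoxc5 from 0.388 and 0.350 to 0.980 and 0.818 (1.33 ± 0.18, adjusted p = 0.000121). The 1 lower bin lay in the stretch without a Hox start between Hoxb9 and Hoxb13 and went from 0.691 and 0.609 to 0.426 and 0.328. DESeq2 called 13 bins.

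Islands measure how much of each cluster was covered. They are runs of windows of 1000 bp with at least 6 reads that hold 60 reads or more. The threshold of 6 reads was not scaled to depth, and the share of the genome in islands was not counted. Coverage is thus a description. MEF replicate 2 had more H3K27me3 reads in calls (15222040) than MEF replicate 1 (13363460). Those of H3K27me3 covered 54.9% and 85.8% of HoxA in MEFs, then 31.8% and 40.3% in pre-iPSCs, then 81.4% and 98.1% in iPSCs. HoxC was covered to 77.5% and 83.6%, then 82.3% and 83.6%, then 100% and 98.8%. HoxD was covered to at least 97.9% in 5 libraries and to 65.3% in pre-iPSC replicate 2.

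At the starts, the H3K27me3 reads of calls with a centre within 1000 bp were counted, 2 to 46 reads for each Hox gene and library. In iPSCs against pre-iPSCs 7 of 39 Hox promoters were higher and 0 lower, where 0.668% of 10185 promoters tested were higher and 0.137% lower. These were Hoxb2, Hoxc6, Hoxa9, Hoxa3, Hoxa2, Hoxb4 and Hoxc5, with log2 fold changes from 1.37 (Hoxa3) to 2.27 (Hoxa2), and 35 of 39 were above 0. The count was 4 with a replicate block, 0 without iPSC replicate 1, 1 and 3 without pre-iPSC replicate 1 and 2, 0 with a window of 500 bp, and 0 with DESeq2, in which 10 Hox promoters had an unadjusted p below 0.05.

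Hoxc6 was at 0.212 and 0.238 RPKM in MEFs, then 0.338 and 0.153 in pre-iPSCs, then 0.979 and 0.895 in iPSCs, the largest rise from MEFs (log2 fold change 1.97 ± 0.39 SE, adjusted p = 0.00031, 9.62e-05 to 0.187 over 12 alternatives). From MEFs to iPSCs 4 promoters were higher (Hoxc6, Hoxa3, Hoxb2 and Hoxb5) and 0 lower, where 7.28% of promoters tested were higher and 4.14% lower, and the count was 2 without MEF replicate 1 or either iPSC library, 0 with a window of 500 bp and 0 with DESeq2 (unadjusted p below 0.05 at 2). The 4 of 39 that were higher were close to the share over all promoters. The median log2 fold change was 0.69 over anterior, 0.66 over central and 0.01 over posterior promoters, against -0.02 over all promoters tested. The start given for Hoxa3 lies between those of Hoxa6 and Hoxa7, and that of Hoxd3 between Hoxd4 and Hoxd8, so their windows lie among central genes.

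From MEFs to pre-iPSCs 2 promoters were lower in H3K27me3 and 0 higher, where 3.26% of promoters tested were lower and 5.01% higher. The 2 of 39 were close to the share over all promoters. Hoxa9 was at 0.969 and 0.636 RPKM in MEFs, then 0.253 and 0.336 in pre-iPSCs, then 0.806 and 1.04 in iPSCs (log2 fold change from MEFs to pre-iPSCs -1.45 ± 0.38 SE, adjusted p = 0.00927). Hoxa10 was at 0.848 and 0.530, then 0.281 and 0.306, then 0.806 in both (-1.23 ± 0.39, adjusted p = 0.0373). Both fell in pre-iPSCs below every MEF and iPSC library. Their transcripts did not pass the test in that step: Hoxa9 was at 3.28 and 2.29 FPKM in MEFs and 2.98 and 0.647 in pre-iPSCs, and Hoxa10 at 6.70 and 11.2, then 5.75 and 2.50. The count was 0 without MEF replicate 1, without pre-iPSC replicate 1 and with DESeq2 (unadjusted p below 0.05 at 3).

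The promoters with most H3K27me3 by their means were not those that changed most. Hoxb1 led in MEFs at 1.39 and 1.22 RPKM and in pre-iPSCs at 0.900 and 1.01, and was at 1.01 and 0.835 in iPSCs. Hoxd12, which was listed at 0 FPKM in MEFs and pre-iPSCs, led in iPSCs at 1.12 and 1.01, after 1.24 and 1.09 in MEFs and 1.07 and 0.825 in pre-iPSCs. Hoxa4 (0.346 and 0.269) and Hoxd8 (0.317 and 0.328) were low in iPSCs, near the genome mean. Hoxa7 was at 0.727 and 0.477 RPKM in MEFs, at 0.835 and 0.955 in iPSCs, and at 0.141 and 0.733 in the pre-iPSC libraries, 1 below and 1 above both MEF values. Hoxb13, whose transcript was highest in iPSCs, was at 0.666 and 0.927 RPKM in MEFs and 0.893 and 1.10 in iPSCs, so its H3K27me3 overlapped between them.

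**Figure D4:**
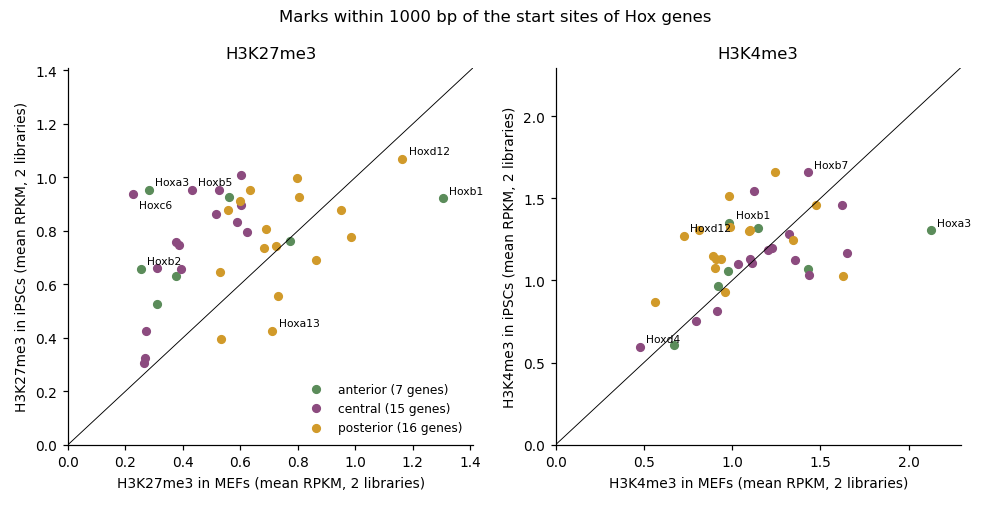
Mean RPKM in MEFs (x axis) against iPSCs (y axis) within 1000 bp of the starts of Hox genes, for H3K27me3 (left) and H3K4me3 (right), 2 libraries each. Colours give the position in the cluster and the line marks equal levels. All 15 central promoters lie above the line in H3K27me3, while posterior promoters lie on both sides.

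H3K4me3 was present along the clusters in every cell type. Over the territories it ran from 0.548 to 1.55 RPKM, where the genome mean was 0.315 to 0.318. MEF replicate 1 lay above MEF replicate 2 in all 11 territories, and the MEF libraries differed by the most RPKM in central HoxB, at 1.55 and 0.897. Its islands covered at least 79.9% of each cluster in all libraries, again with no share of the genome to set beside it. Of 53 bins 0 were called in each comparison by edgeR (unadjusted p below 0.05 in 4, 2 and 3 for pre-iPSCs against MEFs, iPSCs against pre-iPSCs and iPSCs against MEFs) and 0 by DESeq2, where 5.55%, 0.0309% and 13.2% of all 246197 bins were called.

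At Hox promoters H3K4me3 was counted from 12 to 74 reads. From MEFs to pre-iPSCs 2 of 39 were higher (Hoxa2 and Hoxc12), from pre-iPSCs to iPSCs 0 were called (unadjusted p below 0.05 at 3), and from MEFs to iPSCs 6 were higher (Hoxa5, Hoxb1, Hoxb9, Hoxc11, Hoxc12 and Hoxd12), where 3.16%, 0.017% and 9.92% of 17644 promoters tested were higher and 0.759%, 0.0113% and 3.97% lower. These counts were close to the shares over all promoters, and the directions depend on the scaling. TMM sets the median promoter to no change, and without it the median of all promoters was -0.39 from MEFs to pre-iPSCs and -0.37 from MEFs to iPSCs on the log2 scale. Without it 1 Hox promoter was lower in the first of these comparisons and 0 were called in the other. DESeq2 called 0 Hox promoters in every comparison, and a window of 500 bp gave 3 from MEFs to iPSCs. In RPKM the Hox median was 1.25 and 0.923 in MEFs, then 1.10 and 1.04 in pre-iPSCs, then 1.21 and 1.12 in iPSCs, so the cell types overlapped. The 2 called promoters of the first comparison became 1 without either MEF library or pre-iPSC replicate 1, 0 without pre-iPSC replicate 2 and 4 without either iPSC library, and the 6 of the last became 2 without MEF replicate 1, 1 without MEF replicate 2 and 0 without iPSC replicate 1.

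By its mean, Hoxa3 had the highest H3K4me3 of MEFs, at 2.40 and 1.85 RPKM, and was at 1.44 and 1.23 in pre-iPSCs, then 1.43 and 1.18 in iPSCs. Hoxa2 was highest by its mean in pre-iPSCs at 1.62 and 1.95, against 1.56 and 0.732 in MEFs and 1.02 and 1.61 in iPSCs. Hoxb7 was highest by its mean in iPSCs at 1.74 and 1.58, with 1.93 and 0.923 in MEFs and 1.32 and 1.14 in pre-iPSCs. In Hoxa2 and Hoxb7 the MEF values overlapped those of iPSCs. Hoxb1, whose transcript was highest in iPSCs, was at 0.982 and 0.987 in MEFs, then 0.797 and 0.779 in pre-iPSCs, then 1.52 and 1.18 in iPSCs, where the iPSC libraries lay above the other 4.

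Both marks together were seen above 1 RPKM at 0 Hox promoters in each MEF and pre-iPSC library and at 4 in each iPSC library. In iPSC replicate 1 these were Hoxa11, Hoxb1, Hoxc10 and Hoxd12 and in replicate 2 Hoxb9, Hoxb13, Hoxc8 and Hoxd12, so that Hoxd12 alone was shared. This was 10.3% of the Hox promoters, against 0.858% and 0.496% of all promoters in these libraries. Of all promoters 0.665% and 0.461% had both marks in MEFs and 0.372% and 0.347% in pre-iPSCs. The 0 Hox promoters there were near these shares. H3K4me3 alone was above 1 RPKM at 30 and 15 Hox promoters in MEFs, then 26 and 22 in pre-iPSCs, then 28 and 22 in iPSCs. These were 76.9% and 38.5%, 66.7% and 56.4%, then 71.8% and 56.4% of the Hox promoters, where 55.7% and 46.8%, 40.1% and 35.6%, then 40.3% and 33.9% of all promoters were in this state, so that in MEF replicate 2 the Hox share lay below that of all promoters. H3K27me3 alone marked Hoxb1 and Hoxd12 in both MEF libraries. The reads behind these calls are few, and with a window of 500 bp MEFs and pre-iPSCs had a mean of 1 promoter with both marks. With that window the promoters with both marks in iPSC replicate 2 were Hoxa9 and Hoxb13, and Hoxd12 had H3K27me3 alone there. At 2 RPKM 0 Hox promoters had both marks in any library.

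Across the 39 genes the levels of H3K27me3 and expression were related in MEFs and pre-iPSCs more than in iPSCs. Spearman's rho between the mean H3K27me3 RPKM at the start and log2(FPKM + 1) was -0.50 in MEFs, then -0.47 in pre-iPSCs but 0.14 in iPSCs (Pearson's r -0.51, -0.47 and 0.01). With H3K4me3 rho was 0.35, 0.13 and 0.44. The genes of a cell type share their libraries and lie side by side, so these are descriptions. The 25 genes at 1 FPKM or more in both MEF libraries had a median H3K27me3 of 0.364 and 0.503 RPKM, and the 10 below 1 FPKM in both had 0.682 and 0.847. In iPSCs the 13 expressed genes had 0.806 and 0.835 and the 21 others 0.806 and 0.746.

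H3 itself was not called at Hox promoters. In the 3 comparisons 0 of 39 and 0% of 19576 promoters passed by edgeR (unadjusted p below 0.05 at 1, 0 and 2 Hox promoters) and 0 of 39 by DESeq2 (0, 0 and 1), and without pre-iPSC replicate 2 the first comparison called 7, all higher. Over the clusters H3 was at 0.226 to 0.288 RPKM in MEFs, 0.720 to 0.828 in pre-iPSC replicate 1 and 0.242 to 0.293 in replicate 2, and 0.497 to 0.548 and 0.295 to 0.338 in the iPSC libraries. The pre-iPSC libraries thus differed from each other by more than the means of the cell types did. From MEFs to iPSCs the median log2 fold change of H3 was 0.47 over Hox promoters, against 0.05 over all promoters. Of 39 Hox promoters 35 lay above 0, and both iPSC libraries were above both MEF libraries over every cluster. The levels of H3K27me3 and H3K4me3 were not scaled to H3. H3K9me3, with 1 library a cell type and no test, was at 0.306 to 0.507 RPKM over the clusters in MEFs, then 0.312 to 0.390 in pre-iPSCs, then 0.416 to 0.578 in iPSCs, where the genome mean was 0.316 to 0.318.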

How the data were processed

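Expression and chromatin tables were analysed for 6 RNA and 21 chromatin libraries. The FPKM values were made by the authors with TopHat2 2.0.4 and Cuffdiff (Cufflinks 2.0.2) on mm9 and deposited in 2 tables, each with 1 library of every cell type and normalized separately. The counts deposited for chromatin are reads per nucleosome called by GeneTrack, 1 library a file, with a fuzziness score (SD in bp of a call's reads) that is not reported here; reads were placed at the call centre (start plus 73 bp). Libraries were grouped by cell type from the labels.

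Expression was tested with limma 3.58.1 on log2(FPKM + 1) with the table as a term, for the 12401 genes averaging 0.5 FPKM or more. Counts were tested with edgeR 4.0.16 (quasi-likelihood, TMM, filter on low counts), with DESeq2 1.42.0 as an alternative, in R 4.3.3, with Benjamini-Hochberg adjustment. Both were tested on simulated data. RPKM was scaled to the unique reads the study gives for each library. Depth sets the precision: promoters held 2 to 46 H3K27me3 reads. Genes were named by a rule (per-library values for the 3 largest changes and highest levels). The members and lists were chosen with earlier results of these data known. Values of a few genes and 1 promoter sequence are not reported here.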

Additional observations from a re-analysis of the deposited data

How the results depend on the processing

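With 2 libraries a cell type, most counts moved with single libraries, and the cause was not tested. The shares over all genes, promoters or bins in these fits are not given. The counts here and above thus show only how far the calls moved. Leaving out each library in turn, called Hox genes ranged from 1 to 18 (pre-iPSCs against MEFs), 0 to 14 (iPSCs against pre-iPSCs) and 5 to 24 (iPSCs against MEFs) in expression. In the same order H3K27me3 promoters ranged from 0 to 2, 0 to 8 and 2 to 4, H3K27me3 bins from 2 to 8, 1 to 11 and 15 to 22, H3K4me3 promoters from 0 to 4, 0 to 0 and 0 to 6, H3K4me3 bins from 0 to 2 and otherwise 0, and H3 promoters from 0 to 7 and otherwise 0. With genes of low level kept in, 6 Hox genes passed in the first expression comparison, and a pseudocount of 0.1 gave 4 in the second. Fitting without the table term, which pairs the libraries of a table, gave 14, 2 and 23 called genes. With a replicate block the H3K27me3 promoters called between pre-iPSCs and iPSCs went from 7 to 4, and it changed no other count.

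DESeq2 gave 0 called promoters for H3K4me3 and for H3K27me3 in every comparison, and 2, 4 and 13 H3K27me3 bins. For H3K4me3 promoters from MEFs to pre-iPSCs, no filter gave 1 and scaling without TMM gave 1 in the opposite direction. From MEFs to iPSCs scaling without TMM gave 0 and a window of 500 bp 3. For H3K27me3 promoters a window of 500 bp gave 1, 0 and 0 in the 3 comparisons, calls of at least 2 reads gave 1 and 3 in the first and second, and no filter gave 4 and 2 in the later 2. Bins of 5 kb gave 17 and 34 in the later 2. The 500 bp window gave both marks at 2 and 0 Hox promoters in MEFs and 1 and 1 in pre-iPSCs. It gave 7 and 2 in iPSCs, and at 2 RPKM there were 0. Counting calls of at least 2 reads moved the mean over the clusters to 0.601 (MEFs), 0.476 (pre-iPSCs) and 0.738 RPKM (iPSCs) for H3K27me3 and to 0.787 in pre-iPSCs for H3K4me3. Scaling to reads in calls gave 0.802, 0.666 and 0.959 for H3K27me3 and 1.14, 1.03 and 1.10 for H3K4me3, with the order of the cell types kept.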
